A study of Mus musculus with 7 samples.

Results

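The 10 genes described here encode ionotropic glutamate receptor subunits and the Dlg scaffolds that hold such receptors at the synapse. They are the AMPA receptor subunits Gria1, Gria2 and Gria4, the NMDA receptor subunits Grin1, Grin2a and Grin2b, the kainate receptor subunit Grik2, and the scaffolds Dlg1, Dlg2 and Dlg4. They were chosen by name from the 21938 protein-coding genes that GENCODE M21 places on chromosomes 1 to 19, X and Y of mm10. A peak is a stretch where the DNA fragments pulled down by an antibody pile up over the background, and it was counted at a gene when its centre lay in the gene or within 50 kb. By this rule 81 of 31400 H3K27ac peaks, 6 of 1946 Chd7 peaks of WT cells and 0 of 96 Chd7 peaks of Chd7-deficient cells fell at the 10 genes. Of the Top2b peaks, 43 of 17030 in WT and 55 of 21505 in Chd7-deficient neurons did so.

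Glutamate is the main excitatory transmitter of the cerebellum, and granule neurons receive it from mossy fibres and release it onto Purkinje cells. AMPA receptors carry most of the fast current, NMDA receptors need the obligatory subunit Grin1 together with a Grin2 subunit and admit calcium, and kainate receptors modulate transmission on both sides of the synapse. Through their PDZ domains, Dlg proteins help to anchor such receptors in the postsynaptic density.

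The study isolated granule neuron progenitors (GNPs) from cerebella of C57BL/6 mice (C57BL/6N in the study's methods) at postnatal day 7 and used them fresh for ChIP against H3K27ac, a histone mark of active promoters and enhancers, and against Chd7, an ATP-dependent nucleosome remodeller. H3K27ac ChIP was done in WT GNPs, and Chd7 ChIP in WT GNPs and in GNPs made Chd7-deficient by Atoh1-Cre on the Chd7 f/f allele pair. Atoh1-Cre recombines in the granule cell lineage, and the study describes Chd7 protein that remained in the posterior lobe of these mutants. ChIP against Top2b, a DNA topoisomerase that passes strands through double-strand breaks, was done in WT and Chd7-deficient cerebellar granule neurons (CGNs), made by culturing GNPs without SHH for 48 h.

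Each condition had 1 library, so no value has a replicate error, no difference between genotypes could be tested, and intervals cover counting error only. Total read numbers are not given with the peaks, so depth is not known. The pileup is the number of fragments that overlap the summit of a peak. Its median was 21 for WT Chd7 and 28 for Chd7-deficient GNPs, and 32 on a scaled count for H3K27ac. These medians cover called peaks only and do not give the depth. The lowest −log10 p-value of a called Chd7 peak was 4.53 in WT and 5.76 in Chd7-deficient GNPs. Of the 96 peaks of Chd7-deficient GNPs, 57 lay on the assembled chromosomes. The labelled cell type was checked by H3K27ac peaks within 1 kb of a start site of marker genes. Such a peak was found at 9 of 10 GNP markers, with Ccnd1 as the exception, at 0 of 5 Purkinje cell markers, 4 of 5 interneuron markers, 2 of 5 astroglial markers, 1 of 5 markers of the oligodendrocyte lineage and 0 of 5 microglial and endothelial markers. The part of interneurons or glia in the H3K27ac peaks of the 10 genes was not tested.

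The 6 WT Chd7 peaks counted in these genes or within 50 kb are shown first by their sequence. Of these, 3 have their nearest protein-coding start in a listed gene. Each line holds the summit and 75 bases on either side of it, from the plus strand of GRCm38 (mm10). Capitals mark matches to any of 7 motifs searched on both strands, which were the E-boxes CAGCTG and CAGATG, the nuclear factor I core TTGGCA, the AP-1 motif TGANTCA, the Sox motif ACAATG, the cyclic AMP response element TGACGTCA and the GC box GGGCGG. None of these 7 overlaps another in the windows shown.
Gria1, chr11:57070445-57070595: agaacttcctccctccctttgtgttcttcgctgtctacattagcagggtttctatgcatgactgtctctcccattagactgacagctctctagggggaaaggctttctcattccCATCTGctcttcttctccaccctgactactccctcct
Gria4, chr9:4376047-4376197: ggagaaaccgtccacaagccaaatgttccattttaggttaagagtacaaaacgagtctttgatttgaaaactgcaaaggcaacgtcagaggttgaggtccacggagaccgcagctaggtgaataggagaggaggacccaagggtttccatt
Grin1, chr2:25266119-25266269: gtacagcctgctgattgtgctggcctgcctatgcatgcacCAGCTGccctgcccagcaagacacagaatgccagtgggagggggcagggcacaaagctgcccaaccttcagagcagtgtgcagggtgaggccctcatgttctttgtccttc
Dlg2, chr7:92264464-92264614: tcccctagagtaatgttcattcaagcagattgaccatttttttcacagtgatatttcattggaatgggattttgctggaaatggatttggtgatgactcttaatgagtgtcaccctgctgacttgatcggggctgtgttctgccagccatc
Dlg4 upstream, chr11:69995581-69995731: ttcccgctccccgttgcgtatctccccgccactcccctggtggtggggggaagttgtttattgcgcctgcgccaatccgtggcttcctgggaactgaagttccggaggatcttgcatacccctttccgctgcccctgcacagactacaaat
Dlg4 intron, chr11:70021401-70021551: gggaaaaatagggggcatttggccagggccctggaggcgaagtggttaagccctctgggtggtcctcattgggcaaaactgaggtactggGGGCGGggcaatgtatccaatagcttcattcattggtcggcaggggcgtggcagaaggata

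In 3 of the 6 windows a motif was found, which was CAGATG on the minus strand at Gria1, CAGCTG at Grin1 and GGGCGG in the Dlg4 intron. Of all 1902 WT Chd7 windows of this length on the assembled chromosomes, 63.9% held at least 1 of the motifs, 19.1% held CAGATG, 16.1% held CAGCTG and 24.5% held GGGCGG. The nuclear factor I, AP-1, Sox and cyclic AMP response motifs were in none of the 6 windows and in 14.6%, 2.79%, 4.89% and 0.841% of all of them, in that order. The 6 windows ran from 43.0% GC at Dlg2 to 59.6% at Grin1 and at the upstream Dlg4 peak, with a median of 53.3% beside 56.3% for all WT Chd7 windows. They held between 0 CpG dinucleotides at Grin1 and 9 at the upstream Dlg4 peak. Repeat-masked bases made up 15.9% of the Gria1 window and 13.2% of the Grin1 window and were absent from the other 4.

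H3K27ac was found at 9 of the 10 genes, Chd7 of WT GNPs at 5, and Top2b at all 10 in both genotypes. The Chd7 count was 3 genes when peaks had to lie in the gene body or have their nearest start in a listed gene, 1 at a −log10 q-value of at least 5 and 0 at 10 or more. Shares of all genes at these settings are not given here. The −log10 q-value had a median of 4.38 over all 1946 WT Chd7 peaks, and the highest at the 10 genes, 9.68, ranked 142. Over all protein-coding genes, 73.5% had an H3K27ac peak within 50 kb and 14.3% a WT Chd7 peak, while 62.2% had a Top2b peak in WT CGNs and 71.0% in Chd7-deficient CGNs. Long genes offer more room for peaks, and 8 of the 10 genes exceed 100 kb. Among all 2492 protein-coding genes over 100 kb the shares were 86.5% for H3K27ac, 20.9% for WT Chd7, 83.7% for WT Top2b and 88.4% for Top2b of Chd7-deficient CGNs. Of the 8 long members, 7 had H3K27ac, 3 had Chd7 (Gria1, Gria4 and Dlg2) and 8 had Top2b in either genotype. The shares of the long members with H3K27ac or Top2b were thus near those of long genes in general. No peak of Chd7-deficient GNPs lay at any of the 10 genes, and 0.205% of all protein-coding genes had one.

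**Figure D1:**
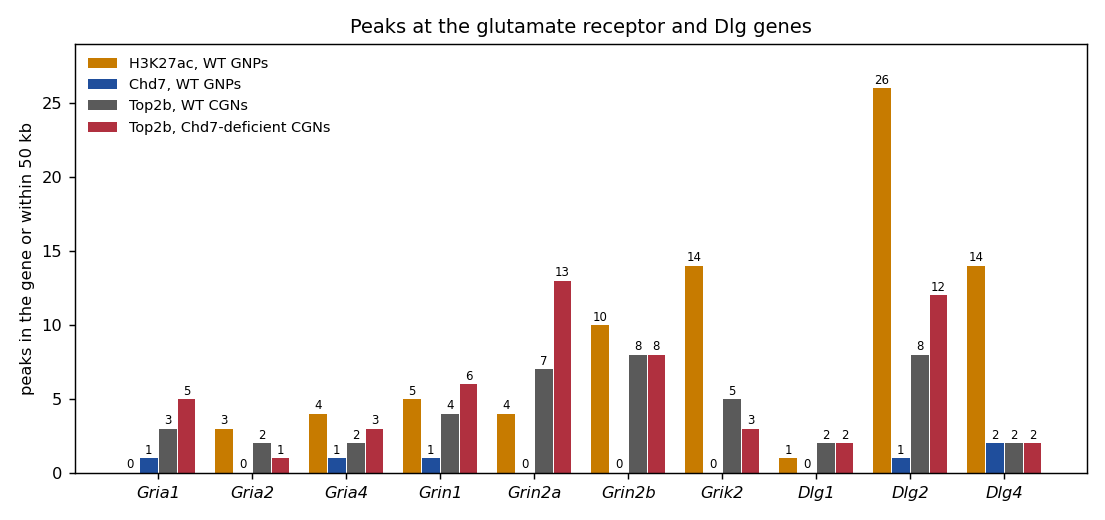
Number of peaks (y axis) in each gene or within 50 kb (x axis) for H3K27ac and Chd7 of WT GNPs and for Top2b of WT and Chd7-deficient CGNs, 1 library each. Dlg2 held the most H3K27ac peaks (26), Gria1 held none, and Dlg4 was the gene with 2 Chd7 peaks.

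Start sites were read from the protein-coding transcripts of GENCODE M21, and a peak counted at a start when it overlapped the 1 kb on either side. H3K27ac lay at a start of 6 genes, Gria2, Gria4, Grin2b, Grik2, Dlg1 and Dlg4, and at none of Gria1, Grin1, Grin2a and Dlg2. Of all protein-coding genes, 45.7% had H3K27ac at a start. None of the 6 WT Chd7 peaks lay at a start of the 10 genes, and 2 of them lay at the start of a neighbouring gene. The share of all WT Chd7 peaks at a start is not given here, so these counts have no background beside them. Of the 81 H3K27ac peaks at the 10 genes, 10 lay at a start of the gene itself, 16 at a start of another gene and 55 at neither. The last were 67.9%, beside 65.3% of all H3K27ac peaks.

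**Figure D2:**
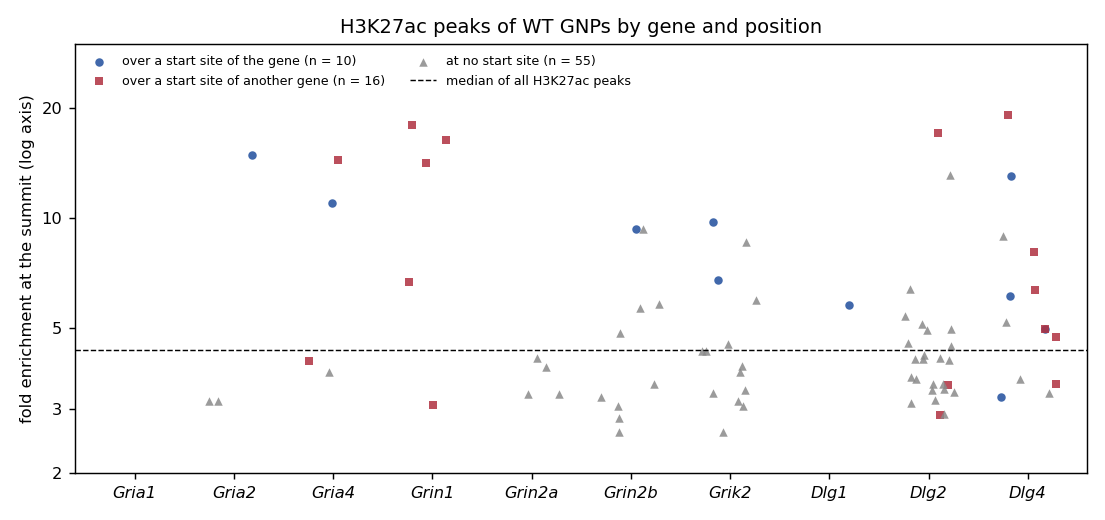
Fold enrichment at the summit of each of the 81 H3K27ac peaks (y axis, log scale) by gene (x axis), with colour and shape for the kind of start site the peak overlaps and a dashed line at the median of all 31400 peaks (4.35). The members' peaks ran from 2.60 to 19.1, with a median of 4.14. The highest at Gria4, Grin1, Dlg2 and Dlg4 lay over starts of neighbouring genes.

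Gria2 encodes the AMPA receptor subunit whose edited form blocks calcium entry. It lies at chr3:80681450-80802835 on the minus strand and had 3 H3K27ac peaks, all inside the gene. The peak over its start, chr3:80800216-80803973, was 3758 bp wide with a pileup of 88.5 and a fold enrichment of 14.9, which ranked 2163 of 31400. The other 2 lay 44.9 and 78.9 kb into the gene, each with a pileup of 14.1 and a fold of 3.14. No Chd7 peak was found at Gria2. Top2b had 2 peaks in WT CGNs, of which the one at chr3:80800417-80800812 lay wholly under the acetylated start region, 2.22 kb into the gene. In Chd7-deficient CGNs 1 Top2b peak was found, beyond the end of the gene, and it did not overlap a WT peak.

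Gria4, at chr9:4417896-4796234 on the minus strand, encodes another AMPA receptor subunit. H3K27ac covered its start at chr9:4793723-4796240 with a pileup of 80.9 and a fold of 11.0, and a weaker peak beside it had a fold of 3.77. The remaining 2 H3K27ac peaks lay 41.8 and 41.2 kb beyond the gene's end, at the start of Msantd4, and the only Chd7 peak of this window lay there too, 41.8 kb beyond the end. That Chd7 peak, chr9:4375837-4376159, had 19 fragments at the summit (95% interval 11.4 to 29.7) over a local background of 4.83, and a fold of 3.43. It lay wholly within an H3K27ac peak with a fold of 14.4, 0.44 kb from the Msantd4 start and 419 kb from the nearest start of Gria4. Top2b covered the Gria4 start in both genotypes, and these 2 peaks shared 113 bp.

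Gria1, at chr11:57011387-57330244 on the plus strand, encodes the AMPA receptor subunit best known from hippocampal plasticity. It had no H3K27ac peak in the gene or within 50 kb. Its Chd7 peak, chr11:57070317-57070676, lay in an intron 57.5 kb from the nearest start of the gene. With 15 fragments at the summit (95% interval 8.40 to 24.7) over a background of 4.09, a fold of 3.14 and a −log10 q-value of 1.78, it was the weakest of the 6 by q-value and ranked 1894 of 1946. It was the 1 peak of the 6 without H3K27ac. Top2b had 3 peaks in WT and 5 in Chd7-deficient CGNs, none at a start and none under H3K27ac, and 1 of each overlapped by 175 bp in an intron about 78 kb into the gene.

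Promoter sequence was compared for genes with and without acetylation at the start. The RefSeq table of GRCm38.p6 held promoters for 7 of the 10 genes, namely Gria2, Gria4, Grin1, Grik2, Dlg1, Dlg2 and Dlg4. The 250 bases before the start are shown 5′ to 3′ on the gene's own strand, which is the minus strand for all 3, with CpG dinucleotides in capitals. Gria2 and Gria4 are shown because their H3K27ac fold at a start in that table was the highest of the 7, and Grin1 as a member without a peak there.
Gria2, chr3:80802836-80803085: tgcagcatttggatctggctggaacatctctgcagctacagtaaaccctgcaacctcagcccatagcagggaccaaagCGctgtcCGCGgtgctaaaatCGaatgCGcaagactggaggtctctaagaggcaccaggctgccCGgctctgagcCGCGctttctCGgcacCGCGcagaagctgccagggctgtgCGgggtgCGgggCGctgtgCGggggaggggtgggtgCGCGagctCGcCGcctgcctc
Gria4, chr9:4796235-4796484: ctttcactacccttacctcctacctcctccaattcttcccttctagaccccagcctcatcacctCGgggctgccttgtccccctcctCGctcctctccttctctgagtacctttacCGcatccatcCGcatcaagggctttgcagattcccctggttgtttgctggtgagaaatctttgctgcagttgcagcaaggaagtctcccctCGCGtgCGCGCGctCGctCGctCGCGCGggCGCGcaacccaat
Grin1, chr2:25319188-25319437: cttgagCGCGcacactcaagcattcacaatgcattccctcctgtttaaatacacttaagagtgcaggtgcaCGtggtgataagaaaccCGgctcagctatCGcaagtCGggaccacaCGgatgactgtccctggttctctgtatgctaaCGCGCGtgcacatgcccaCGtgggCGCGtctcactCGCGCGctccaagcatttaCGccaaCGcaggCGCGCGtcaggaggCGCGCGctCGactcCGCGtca

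These stretches held 19 CpGs at Gria2, 16 at Gria4 and 27 at Grin1, beside a median of 6 over 32851 RefSeq promoters. The other RefSeq starts without H3K27ac held fewer, with 3 and 1 CpGs at Dlg2 and 4 and 3 at Dlg1. Starts with H3K27ac ran from 2 CpGs at Dlg2 to 20 at Grik2 and Dlg1. GC content of the 3 stretches shown was 64.8%, 58.8% and 58.8%, beside a median of 52.4%. Of the 7 motifs above, the Grin1 stretch held ACAATG, which was found in 10.7% of all promoters, and the other 2 held none. The GC box was in 32.7% of all promoters and in none of these 3, and it was found before starts of Dlg1 and Dlg4.

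Grin1, at chr2:25291181-25319187 on the minus strand, encodes the NMDA receptor subunit present in every NMDA receptor. It is 28.0 kb long and had no H3K27ac peak within its body or at any of its 3 start sites. All 5 H3K27ac peaks of its window lay at starts of other genes. The 2 highest were chr2:25254688-25256364 at Ndor1 and Tmem203, with a pileup of 178.8 and a fold of 18.0, and chr2:25262105-25268356 at Tprn, with a pileup of 141.2 and a fold of 16.4. The latter, 6252 bp wide, held the Chd7 peak chr2:25265977-25266430, which lay in an intron of Tprn 25.0 kb beyond the end of Grin1. This Chd7 peak had 26 fragments at the summit (95% interval 17.0 to 38.1) over the highest local background of the 6, 7.59, and thus a fold of 3.14. A Top2b peak of Chd7-deficient CGNs covered 325 bp of it, and no Top2b peak of WT CGNs did.

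Grin2a and Grin2b encode the NMDA receptor subunits that set the kinetics of the channel, and Grin2b is known for its earlier expression in development. Grin2b, at chr6:135713233-136173511 on the minus strand, had 10 H3K27ac peaks, all inside the gene. The highest by fold covered its start, chr6:136172062-136173360, with a pileup of 54.6 and a fold of 9.31. A second of almost the same fold, 9.30, had the higher pileup of the 2, 73.4, and lay in an intron 261 kb into the gene at chr6:135912305-135913341. Grin2a, at chr16:9567898-9995560 on the minus strand, had 4 H3K27ac peaks, none at a start, and their folds lay between 3.30 and 4.14. Its highest 2 were neighbours at chr16:9768045-9768372 and chr16:9768516-9769115, with folds of 4.14 and 3.90, about 227 kb into the gene. The whole range of Grin2a thus lay under the median of all H3K27ac peaks. Neither gene had a Chd7 peak.

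The start sites of this pair differed in Top2b between the libraries of the 2 genotypes. Over all protein-coding genes, 11.8% had a Top2b start peak in WT and 23.0% in Chd7-deficient CGNs. Of all WT Top2b peaks at a start, 41.7% overlapped a peak of Chd7-deficient CGNs. In WT CGNs a Top2b peak lay at the Grin2b start, within the H3K27ac peak there, and none lay at a Grin2a start. In Chd7-deficient CGNs none lay at the Grin2b start and 2 lay at Grin2a starts, neither under H3K27ac. Over their whole windows, Grin2b had 8 peaks in each genotype and Grin2a had 7 in WT and 13 in Chd7-deficient CGNs, the largest difference among the 10 genes. With 1 library a genotype, this difference has no replicate check.

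Grik2, at chr10:49094833-49788766 on the minus strand, encodes a kainate receptor subunit. It had 14 H3K27ac peaks, all inside the gene. The highest covered its first start sites, chr10:49787751-49789349, with a pileup of 86.6 and a fold of 9.73, and another, chr10:49782367-49784065, covered the starts 5.36 and 5.51 kb further in with a fold of 6.78. The second highest, with a fold of 8.62 and a pileup of 40.5, lay in an intron 552 kb into the gene at chr10:49236217-49236970. No Chd7 peak lay at Grik2. Top2b had 5 peaks in WT and 3 in Chd7-deficient CGNs, and the one at the first start was present in both, with an overlap of 212 bp.

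**Figure D3:**
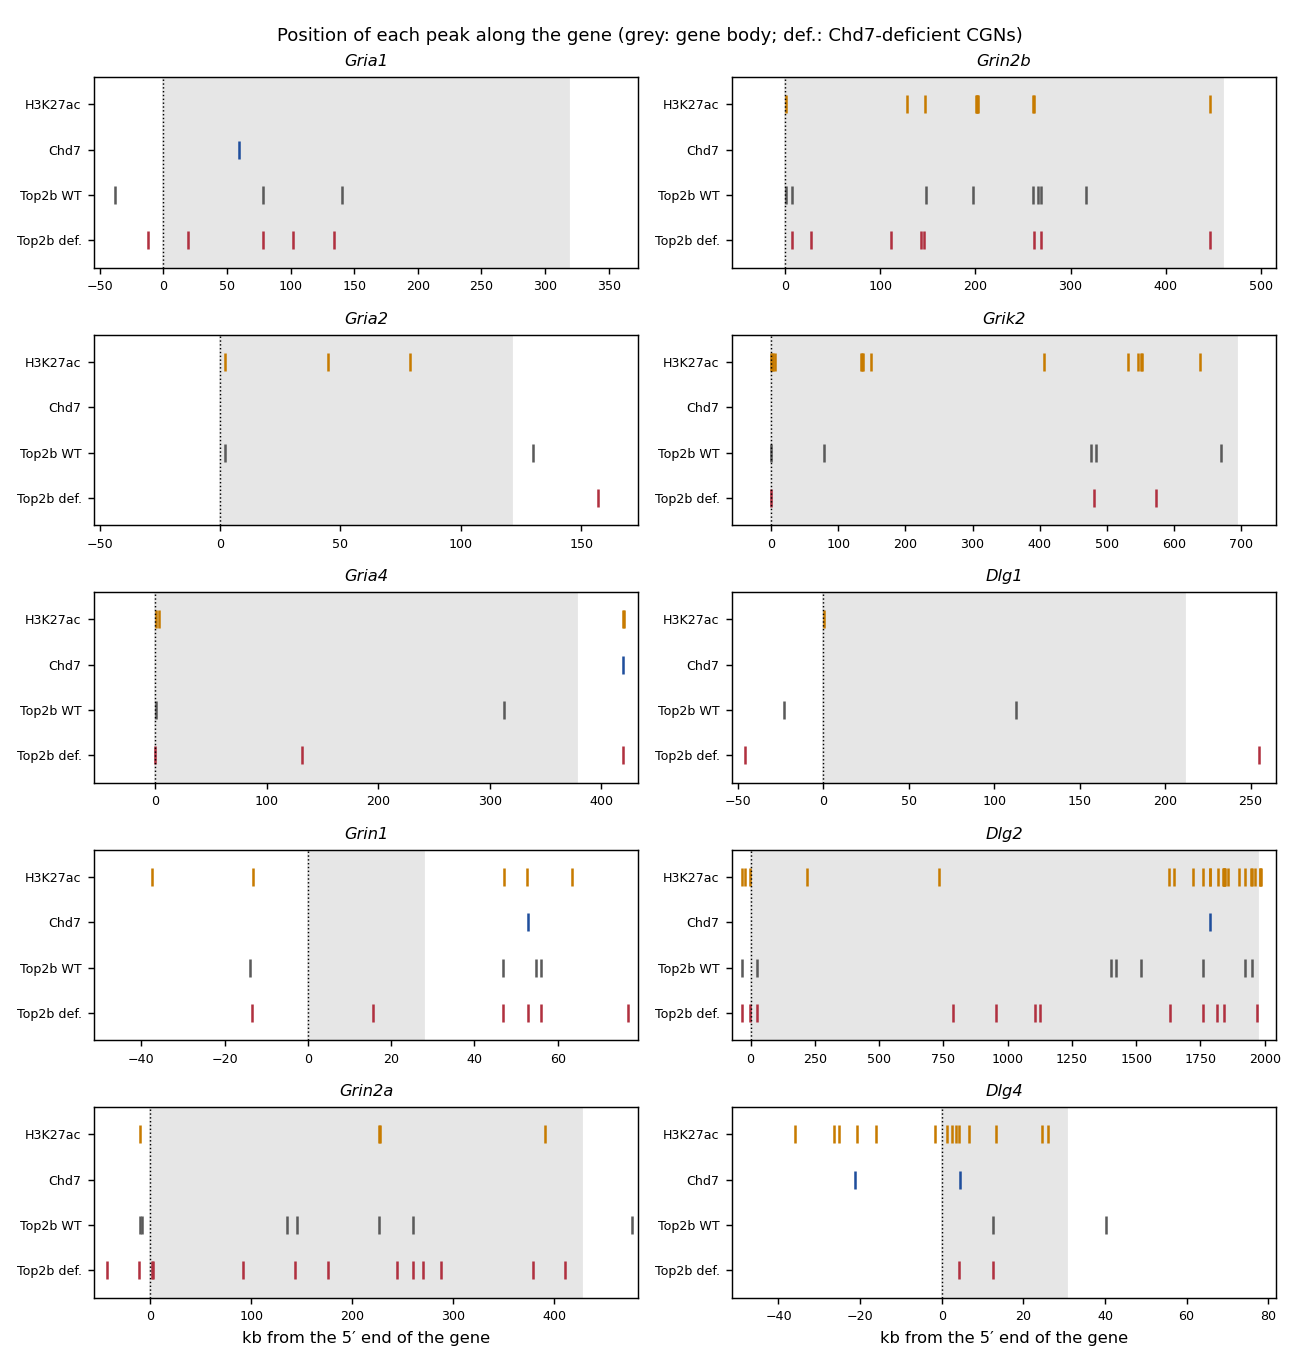
Position of every peak along each gene, with distance from the 5′ end of the gene in kb on the x axis in the direction of transcription, the gene body in grey and 1 row per ChIP (Top2b def. stands for Chd7-deficient CGNs). Chd7 peaks inside a gene are seen only at Gria1, Dlg2 and Dlg4, and the H3K27ac peaks of Dlg2 crowd near its 3′ end.

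Dlg4 encodes PSD-95, the main scaffold of the excitatory postsynaptic density. It lies at chr11:70016942-70047522 on the plus strand, is 30.6 kb long, and had the densest H3K27ac of the 10 genes, with 14 peaks or 10.7 per 100 kb of window, beside 1.15 per 100 kb over the assembled chromosomes. Of these, 8 lay inside the gene and 6 upstream, the latter all at starts of neighbouring genes. The highest of the window, chr11:69979628-69981883 at Ctdnep1 and Elp5, had a pileup of 159.1 and a fold of 19.1. The next, chr11:70028284-70030955, covered internal start sites of Dlg4 about 13 kb into the gene with a pileup of 112.0 and a fold of 13.0. The peak over the first starts, chr11:70017724-70019081, was weaker, with a pileup of 53.6 and a fold of 4.97, and peaks of fold 3.22 and 6.12 lay over later starts.

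Dlg4 had 2 of the 6 Chd7 peaks, and they were the 2 strongest. The one inside the gene, chr11:70021302-70021707, had 31 fragments at the summit (95% interval 21.1 to 44.0) over a background of 5.24, a fold of 5.12 and a −log10 q-value of 9.68. It ranked 260 of 1946 by fold and 142 by q-value. It lay in an intron 2.44 kb from the nearest Dlg4 start and wholly within an H3K27ac peak with a pileup of 88.5 and a fold of 8.95. The other, chr11:69995431-69995918, had 26 fragments (95% interval 17.0 to 38.1) over a background of 4.83 and a fold of 4.63. It lay 21.3 kb upstream of Dlg4 and 0.121 kb from the start of Phf23, and 142 bp of it overlapped an H3K27ac peak with a fold of 8.08. The intervals of the 6 pileups overlapped one another.

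**Figure D4:**
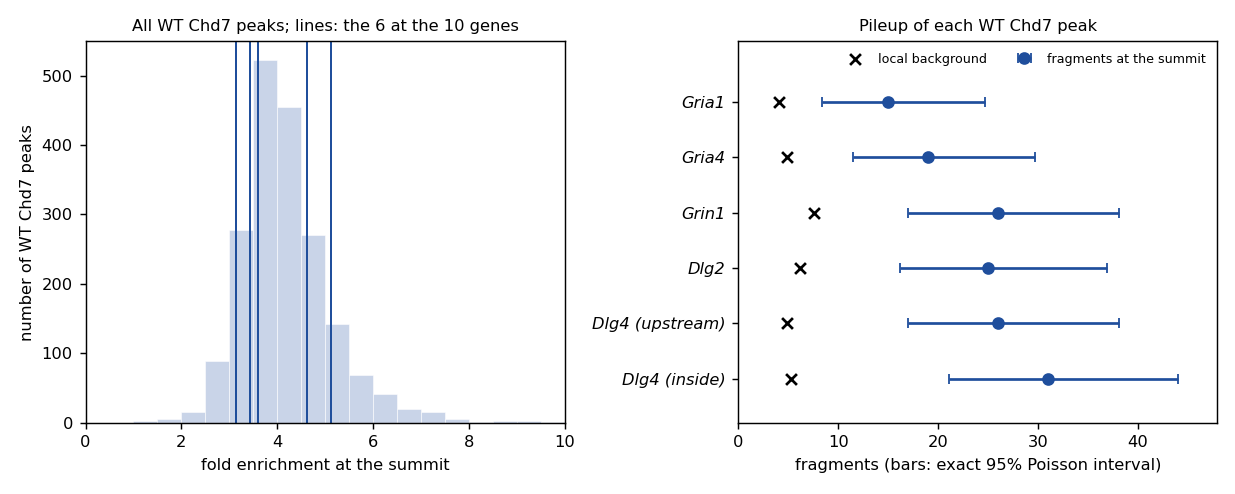
Left, fold enrichment (x axis) of the 1946 WT Chd7 peaks as a histogram, 8 of them beyond the axis at folds over 10, with vertical lines for the 6 peaks at the 10 genes. Right, fragments at the summit of these 6 with exact 95% Poisson intervals and the local background as crosses. Every interval lies above its background, as the calling of these peaks over that background already required. The 4 peaks outside the Dlg4 window have folds under the median of 4.07.

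Dlg2, at chr7:90476672-92449247 on the plus strand, encodes the scaffold PSD-93 and is the longest of the 10 genes at 1973 kb. It had 26 H3K27ac peaks, or 1.25 per 100 kb of window, near the density over the assembled chromosomes. Of the 20 inside the gene, 18 lay more than 1500 kb from its 5′ end, and the other 2 lay 220 and 732 kb from it. None lay at any of its 5 GENCODE start sites, although a RefSeq start of Dlg2 at position 92234970 of chromosome 7 fell within the peak chr7:92234886-92236031, with a pileup of 45.2 and a fold of 5.13, a peak named after its place was seen. The highest peak of the window, with a pileup of 187.3 and a fold of 17.1, was at the start of Crebzf upstream of Dlg2. The next, chr7:92460055-92462455, with a pileup of 96.9 and a fold of 13.2, lay 11.8 kb beyond the end of Dlg2 and at no annotated start. The Chd7 peak, chr7:92264418-92264748, lay in an intron 202 kb from the nearest GENCODE start. It had 25 fragments (95% interval 16.2 to 36.9) over a background of 6.21 and a fold of 3.61, and it spanned the gap between 2 H3K27ac peaks with folds of 4.94 and 4.54, sharing 102 and 123 bp with them.

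Dlg1, at chr16:31663443-31875129 on the plus strand, encodes the scaffold SAP97, which binds Gria1. It had 1 H3K27ac peak, chr16:31663772-31664503, over its first start sites, with a pileup of 50.8 and a fold of 5.76. No Chd7 peak lay at Dlg1, and Top2b had 2 peaks in each genotype with no overlap between them.

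Chd7 and H3K27ac were then compared over all members. Of the 6 Chd7 peaks, 5 overlapped H3K27ac, or 83.3% (95% Clopper-Pearson interval 35.9 to 99.6), beside 77.9% of all 1946 WT Chd7 peaks. In the other direction 6 of 81 H3K27ac peaks, or 7.41% (2.77 to 15.4), overlapped Chd7, beside 4.98% of all H3K27ac peaks. The share over all peaks lay inside the members' interval in both directions. The genes without a Chd7 peak included Grik2 and Grin2b, with 14 and 10 H3K27ac peaks. By nearest protein-coding start, 3 of the 6 Chd7 peaks belonged to the listed genes, namely those inside Gria1, Dlg2 and Dlg4, and 3 to Msantd4, Tprn and Phf23.

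The lowest −log10 p-value among the peaks of Chd7-deficient GNPs was 5.76, and 5 of the 6 WT peaks were above it, all but the one at Gria1 with 5.19. Of all 1946 WT Chd7 peaks, 1817 were at or above it. The depth of that library is not known, and a lower depth and a loss of Chd7 from these sites cannot be told apart in these tables.

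Large acetylated domains were approximated by joining H3K27ac peaks that lie within 12500 bp of each other and ranking the 17539 joined regions by the sum of width times pileup. The 612 regions above the point where the scaled curve passes a slope of 1 are called super-enhancer-like here. Such regions lay within 50 kb of 2 of the 10 genes, Grin1 and Dlg4, beside 8.31% of all protein-coding genes. The one at Grin1, chr2:25254688-25273318, ranked 115, held the starts of Anapc2, Ndor1, Ssna1, Tmem203 and Tprn, and did not touch Grin1 itself. At Dlg4, the region chr11:70015040-70044036 ranked 444 and held 9 peaks with the starts of Acadvl and Dlg4, and the region chr11:69979628-70001604 ranked 490 and held the starts of Ctdnep1, Dvl2, Elp5, Gabarap and Phf23. The best region at Dlg2 ranked 863 and that at Gria2 ranked 1379, outside the 612.

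Top2b was measured in CGNs, and the genes were chosen with earlier results of these data known. Its peaks have a fixed width of 396 bp in WT and 400 bp in Chd7-deficient CGNs and carry no score, so only their number and place could be compared. The 10 genes had 43 peaks in WT and 55 in Chd7-deficient CGNs, a ratio of 1.28 beside 1.26 for all Top2b peaks. More peaks were found in Chd7-deficient CGNs at Gria1, Gria4, Grin1, Grin2a and Dlg2, fewer at Gria2 and Grik2, and equal numbers at Grin2b, Dlg1 and Dlg4. In WT CGNs, 10 of the 43 peaks were overlapped in Chd7-deficient CGNs, or 23.3% (95% interval 11.8 to 38.6), beside 16.8% of all WT Top2b peaks. Of the 55 peaks of Chd7-deficient CGNs, 10 or 18.2% (9.08 to 30.9) overlapped a WT peak, beside 13.3% of all.

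**Figure D5:**
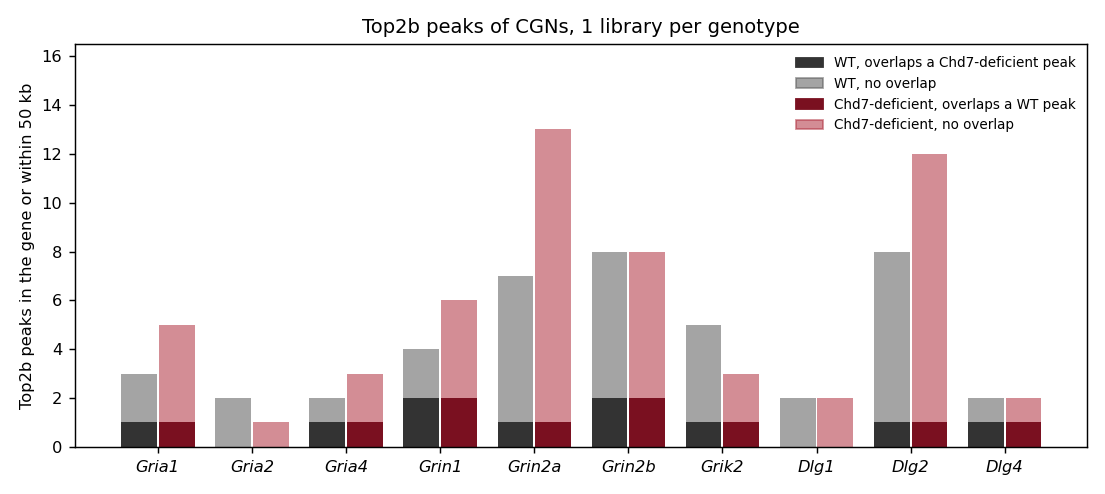
Number of Top2b peaks (y axis) at each gene (x axis) in WT CGNs (grey) and Chd7-deficient CGNs (red), 1 library each, with the dark part for peaks that overlap a peak of the other genotype. At Gria2 and Dlg1 no peak was common to both, and at Grin2a 1 of 13 peaks of Chd7-deficient CGNs overlapped a WT peak.

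At start sites, Top2b of WT CGNs was found at 4 genes, Gria4, Grin2b, Grik2 and Dlg4, beside 11.8% of all protein-coding genes. Top2b of Chd7-deficient CGNs was found at starts of 5 genes, Gria4, Grin2a, Grik2, Dlg2 and Dlg4, beside 23.0%. The start peaks of Gria4, Grik2 and Dlg4 overlapped between the genotypes, by 113, 212 and 347 bp. Counting starts of any protein-coding gene, 8 of the 43 WT peaks lay at a start, and 6 of these 8 overlapped a peak of Chd7-deficient CGNs, beside 41.7% of all WT Top2b peaks at a start. Of the other 35 peaks 4 did so, beside 12.4% of all WT Top2b peaks away from starts. The Dlg4 peaks lay not at the first start but at the internal starts, 12.6 kb into the gene for the WT peak, under the H3K27ac peak of fold 13.0.

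Among WT Top2b peaks at the 10 genes, 16 of 43 overlapped H3K27ac of GNPs, or 37.2% (95% interval 23.0 to 53.3), beside 17.4% of all WT Top2b peaks. All 4 WT peaks at Grin1 did so, all under H3K27ac peaks at starts of other genes, and 3 each did at Grin2b and Dlg2. For Chd7-deficient CGNs the count was 15 of 55, or 27.3% (16.1 to 41.0), beside 26.6% of all. None of the 6 WT Chd7 peaks overlapped a WT Top2b peak, which allows a share of up to 45.9% and stands beside 16.6% of all WT Chd7 peaks. With Top2b of Chd7-deficient CGNs 2 of 6 overlapped, those at Grin1 and in the Dlg4 intron, beside 34.2% of all.

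The other genes of the pathway were taken from a list of 50 further glutamate receptor, auxiliary and postsynaptic genes. Of these, 41 had H3K27ac within 50 kb, beside 73.5% of all protein-coding genes, and 23 had it at a start, beside 45.7%. Top2b lay at 42 in WT and 44 in Chd7-deficient CGNs, beside 62.2% and 71.0%. A WT Chd7 peak lay at 11, beside 14.3%. Of the list, 25 genes exceed 100 kb. Among all genes over 100 kb the shares within 50 kb were 86.5% for H3K27ac and 20.9% for WT Chd7. For Top2b they were 83.7% in WT and 88.4% in Chd7-deficient CGNs. The 11 genes had 16 Chd7 peaks, of which 10 overlapped H3K27ac, beside 77.9% of all WT Chd7 peaks. The highest fold was at Dlgap1, which encodes a partner of Dlg4 in the postsynaptic density, with 3 peaks of fold 5.60, 5.42 and 5.06. The middle one of these, chr17:69968981-69969647, lay 0.056 kb from a Dlgap1 start. Grm4, a metabotropic glutamate receptor of granule cell terminals, followed with folds of 4.88 and 4.63, of which the former lay nearest to the start of Hmga1. Grin3b had a peak of fold 4.12 nearest to Tmem259, and Grip1, which binds AMPA receptors, and Grm5 each had an intronic peak without H3K27ac, with folds of 4.10 and 4.04.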

How the data were processed

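ChIP-seq peak tables were analysed for 5 libraries of the mouse cerebellum, with 1 sample per condition. Groups follow the sample titles. Per the study's methods, the authors trimmed reads with Trim Galore, mapped them to mm10 with Bowtie 1.0.0 keeping reads with 1 alignment, and called peaks per library with macs2 at default parameters for GNPs and with HOMER in factor style for CGNs. The macs2 control library is not given in the sources used here. The authors deposited the pileup as a coverage signal, whole for Chd7 and scaled for H3K27ac. The other deposited columns of these tables are the −log10 of each peak's p-value and q-value and its fold over the local background, whose decimal points were lost and were restored here by dividing by 100000. P-values recomputed from Chd7 pileup and background differed by at most 0.00022 on the −log10 scale in WT. The deposited Top2b files hold start and end of each peak, with no score.

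Genes and start sites came from GENCODE M21, promoters from RefSeq (GRCm38.p6) and sequence from GRCm38. Any overlap of 1 bp or more counted. Pileups have exact Poisson intervals and shares exact Clopper-Pearson intervals, both at 95%. All 10 genes were named, with every Chd7 peak, and of the H3K27ac peaks those at a start of the gene, those under Chd7 and the 2 highest by fold per gene. Of the 50 pathway genes, the 5 with the highest Chd7 fold were named. The genes, lists and motifs were chosen with earlier results of these data known. Alternatives changed the window, the q-value threshold, the assignment, the position of a peak, the overlap and the stitching. The input libraries were not used here. Counting functions were tested on simulated peaks. Tools were pysam 0.24.0, scipy 1.17.1, matplotlib 3.10.9, pandas 2.3.3 and numpy 2.4.6 under Python 3.11.15.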

Additional observations from a re-analysis of the deposited data

How the results depend on the processing

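Of 67 alternative values, 47 stayed and 20 moved, where a count moved by over 1.5 times and a share moved when it left the 95% interval of the reported share. Taking the gene body alone, or 5 kb upstream to 1 kb downstream, left 3 WT Chd7 peaks at 3 genes, and so did keeping peaks whose nearest start belongs to a listed gene. A −log10 q-value of at least 5 left 2 WT Chd7 peaks at 1 gene (Dlg4), 3 pathway genes with a Chd7 peak, and raised the share of Chd7 peaks under H3K27ac to 100%. At 10 or more, 0 WT Chd7 peaks at 0 genes and 0 pathway genes remained, the share of H3K27ac peaks at Chd7 fell to 0%, the share of Chd7 peaks could not be computed, and 37 H3K27ac peaks remained. The median −log10 q-value of all WT Chd7 peaks was 4.38, and shares of all genes at these thresholds are not given here. Assignment by nearest start left 49 H3K27ac peaks. Requiring 50% of the peak to be covered gave 0% of H3K27ac peaks at Chd7. The median width was 646 bp for all H3K27ac peaks and 420 bp for all WT Chd7 peaks. Extending peaks by 1 kb raised the shared WT Top2b peaks to 41.9%. Ranking joined regions by width times fold, or asking for overlap with the gene body, left 1 gene with a super-enhancer-like region. With start windows of 2 kb, 7 genes had H3K27ac at a start, Dlg2 being added by a peak with its summit 1.43 kb upstream of a Dlg2 start. That summit lay 0.202 kb from the start of Tmem126b. The cause of the moved values was not tested. A higher Top2b score threshold was not run because the Top2b files hold no score. No paired analysis was possible because each condition has 1 library and no result comes from a test. Unknown read depth limits every absence of a peak.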
